A study of Mus musculus with 12 samples.

Results

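The data described here are the 6 RNA-seq libraries of common myeloid progenitors (CMP) from mouse bone marrow, chosen by their titles: 3 from enhancer-null mice and 3 from wild-type mice, out of the 12 libraries of the series. The other 6 libraries were made from LSK cells, a stem and early progenitor population of the same marrow, and enter only 1 alternative fit. Enhancer-null mice had the genotype Cebpa +42kb enhancer -/-, that is, both copies of a Cebpa regulatory element, placed at +42 kb by the labels, were deleted, although the series' design text calls these mice Cebpa null. Wild-type mice carried no such deletion, and both groups were C57BL/6. The labels name no Cre, transgene or treatment and give neither the age nor the sex of the mice. CMP were isolated as a population, and their RNA was extracted with a carrier, amplified as cDNA from low input and sequenced as read pairs of 75 bases. Enhancer-null libraries are numbered 1, 2 and 7 and wild-type libraries 1, 6 and 8, and values are given in these orders throughout. The labels do not say that these are separate animals, so p-values measure the spread between these libraries, which may be technical.

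Cebpa encodes C/EBP-alpha, a basic leucine zipper transcription factor that binds DNA as a dimer and switches on genes of granulocytes and monocytes. In bone marrow it is needed at the step from the CMP, which can still form myeloid, erythroid and megakaryocytic cells, to the granulocyte and monocyte progenitor. The +42 kb element is the enhancer through which myeloid progenitors raise Cebpa transcription, and the comparison asks how the CMP transcriptome differs when it is missing from the genome.

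Gene counts were 8976999, 20122669 and 16843626 in the enhancer-null libraries and 32770938, 17669425 and 15470260 in the wild-type libraries. Levels are CPM, the counts of a gene relative to the sum of its library, scaled between the 6 libraries by TMM, and a count of 3, taken as the floor, corresponded to 0.0915 to 0.334 CPM. Enhancer-null libraries 1 and 7 lay further from the wild type than library 2, and the enhancer-null libraries agreed less with each other than the wild-type libraries did. Across genes, wild-type libraries correlated with each other at r = 0.912 to 0.972 (log2(CPM + 1)), and enhancer-null library 2 correlated with them at 0.88 to 0.936. Library 1 reached only 0.746 to 0.789 and library 7 only 0.795 to 0.84 with the wild-type libraries. Within the enhancer-null group, r was 0.83 for libraries 1 and 2, 0.765 for 1 and 7 and 0.873 for 2 and 7. Library 2 was thus closer to each wild-type library than to its own group. The median SD of a tested gene between libraries, in log2(CPM + 1), was 0.638 in the enhancer-null and 0.33 in the wild-type group. Of the 8893 genes averaging 10 CPM or more, 2.62% were at 0 in library 1 and 1.14% in library 7, against 0.0225% to 0.585% in the other 4 libraries. The sex genes put enhancer-null libraries 1 and 2 and wild-type library 1 as male and the other 3 as female. Of the genes commonly used to gate CMP, Kit was present at 251 to 710 CPM and Cd34 at 272 to 879 CPM, and Ly6a, which such gates exclude, stood at 0.183 to 12.7 CPM.

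Cebpa itself (ENSMUSG00000034957.10, chr7:35119293-35121928, plus strand, mm10) was almost absent from the enhancer-null libraries. It had 0, 3 and 0 counts there, 0, 0.146 and 0 CPM, against 544, 270 and 463 counts, 16.8, 14.9 and 30.0 CPM, in the wild-type libraries. All 3 enhancer-null libraries were at or below the floor, and the groups did not overlap. The ratio of the summed counts, each scaled to its library, was 296, with an exact 95% interval of 101 to 1436 that covers counting error only. The fitted log2 fold change was -8.34, SE 1.60, adjusted p = 0.0817, which missed the threshold of 0.05. It passed in the DESeq2 fit (adjusted p = 1.09e-11), without a filter on low counts (0.0133) and with all 12 libraries in the fit (0.0337). Over the 6 fits that left out 1 library and 10 other alternatives, the adjusted p of Cebpa ranged from 1.09e-11 to 0.338. Other members of the family were not called: Cebpb, which can take over part of the role of Cebpa, stood at 452, 173 and 157 against 112, 63.2 and 82.2 CPM (1.60, SE 0.45, adjusted p = 0.212). Cebpd had a log2 fold change of -1.41, SE 0.62, adjusted p = 0.412 and Cebpg, the partner without an activation domain, one of -1.16, SE 0.68, adjusted p = 0.571. Cebpe, the factor of late granulocytes, had 0, 0.582 and 0 against 2.94, 0.717 and 0.648 CPM (-2.78, SE 2.08, adjusted p = 0.687).

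Of 11722 genes tested, 56 were higher and 13 were lower in enhancer-null CMP at an adjusted p below 0.05 (edgeR quasi-likelihood test, Benjamini-Hochberg), 0.478% and 0.111% of the genes tested and 0.589% together. The rises had a median log2 fold change of 2.33, from 1.12 to 9.0, and 34 of the 56 were of at least 2. The falls had a median of -3.40, from -1.24 to -8.39, and 10 of the 13 were of at least 2. In none of the 69 genes did the groups overlap, which was also so in 2776 genes, 23.7% of all tested. The common biological coefficient of variation was 0.784. The split between rises and falls depended on libraries: without enhancer-null library 2, 53 genes rose and 39 fell. Leaving out wild-type library 1, 6 or 8 left 12, 6 and 6 rises and 1 fall each. With sex as a covariate 25 rises and 6 falls were called. DESeq2 called 532 rises and 367 falls, and these included all 69.

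**Figure D1:**
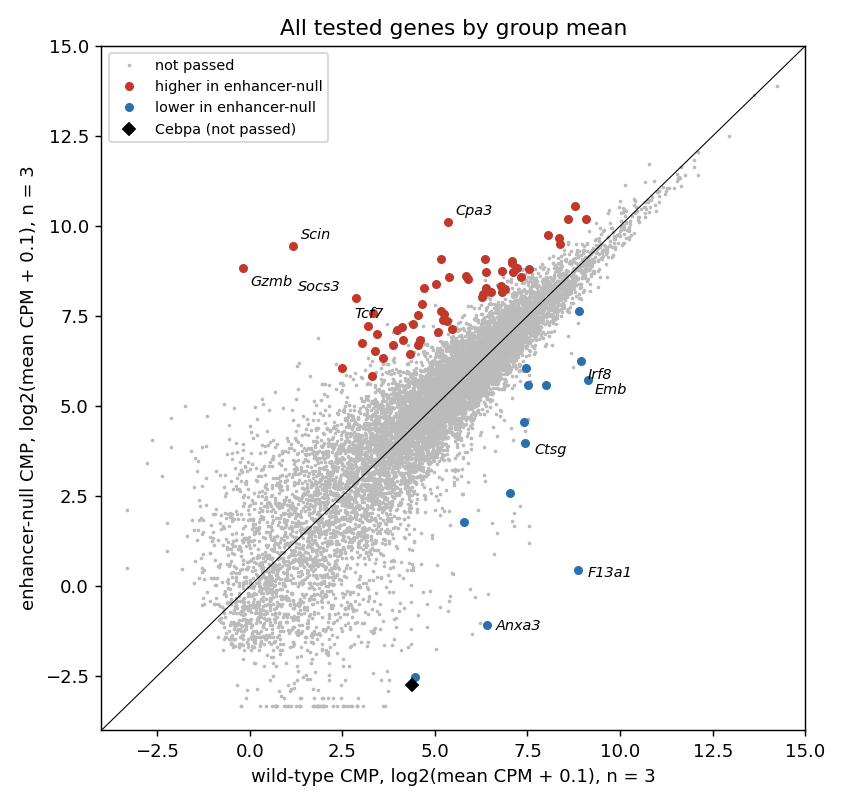
Mean CPM of each tested gene in wild-type CMP (x axis) and enhancer-null CMP (y axis), both as log2(mean CPM + 0.1) over 3 libraries. The 56 genes called higher lie above the diagonal, the 13 called lower lie below it, and Cebpa, drawn as a diamond, lies far below it without passing the test.

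Of the 13 falls, 4 belonged to a list of monocyte and macrophage genes, which was chosen with earlier results of these data known. F13a1, the coagulation factor XIII subunit made by monocytes and megakaryocytes, had 0.458, 3.35 and 0 CPM in the enhancer-null libraries and 369, 519 and 520.5 CPM in the wild-type libraries. The enhancer-null libraries were within a few CPM of 0 and the wild-type libraries far above them (log2 fold change -8.39, SE 1.11, adjusted p = 0.0261), and the ratio of summed counts was 279 with a counting interval of 222 to 356. Ms4a6c, a membrane-spanning protein of the monocyte lineage, had 1.83, 9.12 and 6.76 against 153, 120.0 and 119 CPM (-4.45, SE 0.59, adjusted p = 0.0261). Emb, an immunoglobulin-family chaperone of lactate transporters, had 54.5, 30.0 and 74.3 against 644, 553 and 480.0 CPM (-3.40, SE 0.34, adjusted p = 0.0113). Tifab, an inhibitor of TRAF6 signalling, had 29.7, 24.1 and 17.2 against 154, 181 and 172 CPM (-2.84, SE 0.29, adjusted p = 0.0113). In all 4 the highest enhancer-null library lay well below the lowest wild-type library. In bulk RNA, fewer cells of a type and less RNA of a gene per cell cannot be told apart.

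The list holds 26 genes, of which 22 were tested and 4 called (18.2%, against 0.589% of all genes). This list and all lists below were chosen with earlier results known. Their called shares and medians therefore describe the lists and do not test them. The median log2 fold change of the tested members was -3.43, against -0.02 over all genes, and 21 of the 22 were negative, against 51.2% of all genes. Of the members that did not pass, Psap, a lysosomal saposin precursor, had 103, 200.2 and 174 against 452, 519 and 420.1 CPM (-1.54, SE 0.26, adjusted p = 0.0538). Ctss, the cathepsin of antigen-presenting cells, had 7.68, 7.13 and 9.68 against 66.2, 47 and 42.1 CPM (-2.66, SE 0.45, adjusted p = 0.0538), and Ly86, the partner of the receptor RP105, 11.7, 1.99 and 8.71 against 93.9, 75.7 and 76.4 CPM (-3.47, SE 0.65, adjusted p = 0.078). Csf1r, the M-CSF receptor, had 4.81, 22.6 and 22.7 against 95.8, 174 and 142 CPM (-3.03, SE 0.60, adjusted p = 0.0875). Ccr2, the chemokine receptor of inflammatory monocytes, did not follow, with 179, 43.8 and 4.02 against 118, 66.7 and 60.7 CPM and its highest value in enhancer-null library 1.

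Irf8 was the transcription factor with the smallest adjusted p among the falls. It is the interferon regulatory factor that monocytes and dendritic cells depend on, and it had 82.9, 77.7 and 69.7 CPM in the enhancer-null libraries against 495, 589 and 388 CPM in the wild-type libraries. Each group was narrow, and the gap between them was wider than either (log2 fold change -2.68, SE 0.21, adjusted p = 0.00424). Irf8 passed in all alternative fits, with a highest adjusted p of 0.0246. Among 28 tested granulocyte and monocyte factors, Irf8 was the only one called lower, and Sox4 and Id2 were called higher (10.7% called, against 0.589% of all genes). Of the 28, 11 were negative, and the median was 0.12. Gfi1, the repressor of granulocyte progenitors, had 0.115, 1.75 and 0 against 20.9, 16.9 and 11.6 CPM (-4.68, SE 1.78, adjusted p = 0.339), low in all 3 enhancer-null libraries. Egr1, linked to monocyte differentiation, had 275, 222 and 583 against 119.8, 74.7 and 51.9 CPM (2.13, SE 0.45, adjusted p = 0.102).

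Genes of primary granules were mixed. Ctsg, cathepsin G, a serine protease of these granules, had 21.9, 11.7 and 13.1 against 232, 152 and 139.6 CPM (-3.49, SE 0.37, adjusted p = 0.0123), and the groups were far apart. Clec12a, an inhibitory lectin of myeloid cells placed in the same list, had 64.7, 43.8 and 36.4 against 216, 166 and 170.0 CPM (-1.93, SE 0.29, adjusted p = 0.0392). These were the 2 called of 18 tested primary granule genes (11.1%, against 0.589% of all genes), whose median was -1.46, with 13 negative. Mpo, myeloperoxidase, stayed abundant at 2654, 2338 and 3206 against 4774, 4404 and 4057 CPM (-0.69, SE 0.13, adjusted p = 0.0816). Prtn3, proteinase 3, had 185, 99.2 and 88.9 against 513, 319 and 337 CPM (-1.65, SE 0.33, adjusted p = 0.092). Elane, neutrophil elastase, had 0.115, 11.6 and 0.122 against 234, 109 and 75.6 CPM (-5.09, SE 1.55, adjusted p = 0.244).

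Late neutrophil genes had the lowest median of the lists, -5.72 over 13 tested members. Of these, 12 were negative (92.3%, against 51.2% of all genes) and none was called (against 0.589% of all genes). Camp, the cathelicidin of secondary granules, had 0.458, 0.728 and 0 against 209, 13.4 and 0.0648 CPM (-7.52, SE 2.43, adjusted p = 0.266). S100a8, a calcium-binding protein of neutrophils, had 0.573, 5.92 and 2.8 against 382, 30.4 and 8.55 CPM (-5.46, SE 1.54, adjusted p = 0.217), and S100a9, its partner, had 0.573, 7.42 and 1.34 against 502, 43.8 and 14.3 CPM. The 3 wild-type libraries themselves ranged widely: the summed level of 7 late neutrophil markers was 1936, 229.8 and 25.9 CPM, against 3.67, 25.1 and 4.26 CPM in the enhancer-null libraries. Wild-type library 1 carried most of this signal. Of the 8 subunits of the NADPH oxidase, the enzyme of the neutrophil burst, none was called. Their median was -0.64, and Cybb, the catalytic subunit, had 0, 1.02 and 0 against 46.2, 14.2 and 0.712 CPM (-5.81, SE 2.24, adjusted p = 0.35).

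The other falls had various roles. Unc93b1, the chaperone that carries Toll-like receptors to endosomes, had 37.7, 38.9 and 66.8 against 274, 282 and 216 CPM (-2.43, SE 0.29, adjusted p = 0.0186). Dtx4, a Deltex ubiquitin ligase, had 2.29, 5.63 and 2.01 against 54.8, 61.8 and 48.7 CPM (-4.05, SE 0.60, adjusted p = 0.0392). Anxa3, an annexin of myeloid cells, had 0, 1.07 and 0.0609 against 77.1, 63.6 and 112 CPM (-7.62, SE 1.20, adjusted p = 0.0492), with at most 1.07 CPM in an enhancer-null library. Tmem243, a membrane protein, had 1 count in each enhancer-null library and 774, 265 and 419 counts in the wild-type libraries, a ratio of 338 with a counting interval of 115 to 1639. Its log2 fold change was -8.16, SE 1.16, adjusted p = 0.0324, and exons of Dmtf1 overlap it on the other strand. Dmtf1 stood at 71.1, 74.4 and 70.2 against 61, 68.4 and 53.6 CPM. Ctsz, lysosomal cathepsin Z, had 59.1, 71.6 and 67 against 198, 181 and 151 CPM (-1.42, SE 0.22, adjusted p = 0.0423). Pgam1, the glycolytic phosphoglycerate mutase, had 160.3, 191 and 248 against 513, 442 and 459.7 CPM (-1.24, SE 0.19, adjusted p = 0.0492).

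**Figure D2:**
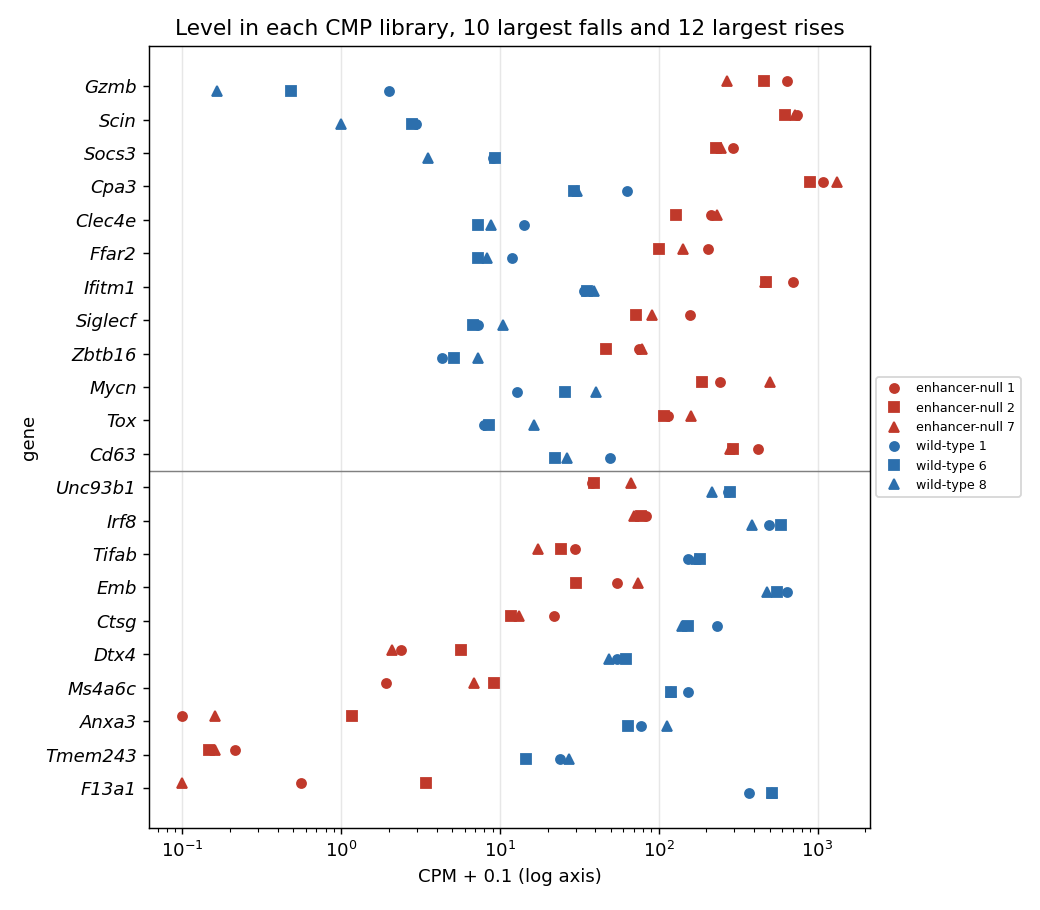
Level of the 10 largest falls and 12 largest rises in each of the 6 CMP libraries, as CPM + 0.1 on a log axis, with 1 point per library. For every gene shown the 3 enhancer-null points and the 3 wild-type points do not overlap, and Scin, Gzmb, F13a1 and Tmem243 show the widest gaps.

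The largest rises held 3 members of a mast cell and basophil list. Gzmb, granzyme B, a serine protease of cytotoxic cells and mast cells, had 646, 463 and 271 CPM in the enhancer-null libraries against 1.92, 0.386 and 0.0648 CPM in the wild-type libraries (log2 fold change 9.0, SE 0.95, adjusted p = 0.0121). Its enhancer-null values themselves spread more than 2-fold, and wild-type library 8 had 1 count. Cpa3, the carboxypeptidase of mast cell granules, had 1076, 894 and 1326 against 63.3, 29.4 and 30.6 CPM (4.74, SE 0.37, adjusted p = 0.00424). Ifitm1, an interferon-induced membrane protein also abundant in basophils, had 703, 472 and 465 against 33.7, 35.5 and 39.2 CPM (3.92, SE 0.23, adjusted p = 0.0016). Ifitm1 belongs to a family of similar genes, whose reads can be shared. These 3 were the called members of 19 tested mast cell and basophil genes (15.8%, against 0.589% of all genes). Of the 19, 12 were positive, and the median was 0.92. Slc18a2, the vesicle transporter of histamine and monoamines, had 360.3, 203 and 112 against 22.2, 23.7 and 50.1 CPM (2.82, SE 0.52, adjusted p = 0.0772). Some protease genes among the mast cell and basophil markers were absent: Tpsb2 had no count in any of the 6 libraries, and Cma1 and Prss34 had none in the enhancer-null libraries. Siglecf, a sialic acid receptor of eosinophils, had 157, 72.4 and 91.2 against 7.21, 6.68 and 10.3 CPM (3.73, SE 0.43, adjusted p = 0.0146), while the granule genes Prg2, Epx and Prg3 were not above the filter on low counts.

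Scin and Socs3 passed in every fit that was run. Scin, scinderin, a calcium-dependent protein that severs actin filaments, had 742, 626 and 719.8 CPM against 2.88, 2.7 and 0.907 CPM. Its enhancer-null values were close to each other, and its wild-type values were all below 3 CPM (log2 fold change 8.29, SE 0.45, adjusted p = 0.0016). Socs3, the feedback inhibitor of cytokine receptors that signal through STAT3, had 294, 231 and 247 against 8.91, 9.21 and 3.43 CPM (5.16, SE 0.43, adjusted p = 0.00619). Pim1, a kinase gene switched on by STAT factors, had 49.1, 55.1 and 67.3 against 9.07, 8.5 and 11.7 CPM (2.55, SE 0.41, adjusted p = 0.0492). Socs3 and Pim1 were the 2 called of 34 tested JAK-STAT signalling genes (5.88%, against 0.589% of all genes). Of the 34, 28 were positive, and the median was 0.22. Pim2, a related kinase, had 129, 134 and 202 against 19.3, 15.9 and 4.01 CPM (3.56, SE 0.59, adjusted p = 0.0531), Stat3 had 454, 314 and 301 against 85.6, 121 and 164 CPM (1.53, SE 0.29, adjusted p = 0.0781), and the cytokine Osm had 61.2, 65.6 and 128 against 27, 16.4 and 14.5 CPM (2.14, SE 0.44, adjusted p = 0.0964).

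Promoter windows were read for the called genes. For 45 of the 56 rises and 10 of the 13 falls, RefSeq starts on GRCm38.p6, the same assembly as mm10, gave 68 and 12 windows of the 250 bases before the start. Motifs were searched on both strands: TTGCNNAA for C/EBP, AGATAA or TGATAA for GATA, TTCNNNGAA for STAT and TGANTCA for AP-1. The 4 windows shown were picked because each holds a match for C/EBP, GATA or STAT. Other windows held none, among them those of F13a1 and the window of a further start of Irf8. Capitals mark the matches of the motif named, and in these 4 windows no match overlapped one of another motif. Irf8 (chr8:120736108-120736357, plus strand) is shown with STAT matches that start 171 and 153 bases before the transcription start. Clec12a (chr6:129349994-129350243, plus strand) held the only C/EBP match of the windows of the falls, 140 bases before the start. Socs3 (chr11:117969367-117969616, minus strand) held a STAT match at 154 bases, and Cpa3 (chr3:20242182-20242431, minus strand) a GATA match at 46 bases.
Irf8: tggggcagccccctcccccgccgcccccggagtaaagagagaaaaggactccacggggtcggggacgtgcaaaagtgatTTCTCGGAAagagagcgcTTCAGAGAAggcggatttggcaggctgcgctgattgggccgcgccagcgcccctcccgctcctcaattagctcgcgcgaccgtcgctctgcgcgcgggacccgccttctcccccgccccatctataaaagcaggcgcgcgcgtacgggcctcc
Clec12a: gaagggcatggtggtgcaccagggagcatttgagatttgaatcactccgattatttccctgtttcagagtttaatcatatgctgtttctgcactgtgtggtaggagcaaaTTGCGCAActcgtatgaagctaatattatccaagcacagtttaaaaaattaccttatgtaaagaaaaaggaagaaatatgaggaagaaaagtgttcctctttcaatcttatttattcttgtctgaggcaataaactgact
Socs3: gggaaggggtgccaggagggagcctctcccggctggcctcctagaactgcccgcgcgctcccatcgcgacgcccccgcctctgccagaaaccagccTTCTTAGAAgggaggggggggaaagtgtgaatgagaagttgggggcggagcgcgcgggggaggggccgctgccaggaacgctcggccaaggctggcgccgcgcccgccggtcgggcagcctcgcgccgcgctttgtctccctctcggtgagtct
Cpa3: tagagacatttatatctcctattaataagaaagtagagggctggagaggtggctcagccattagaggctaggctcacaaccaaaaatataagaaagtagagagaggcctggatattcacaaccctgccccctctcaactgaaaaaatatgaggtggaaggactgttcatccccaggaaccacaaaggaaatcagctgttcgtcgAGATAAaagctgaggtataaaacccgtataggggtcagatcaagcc

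A C/EBP match stood in 8.33% of the windows of the falls (1 of 12) and in 13.2% of those of the rises (9 of 68), against 7.69% of 11414 windows of tested genes and 9.56% of all 32851 windows. The rises with a C/EBP match were Clec4e, Ffar2, Dapp1, Grb2, Jund, Tgfbr2 and Arhgap6. GATA matches stood in 13.2% of the windows of the rises, against 9.72% of tested and 16.6% of all windows. STAT matches stood in 10.3%, against 5.96% and 7.02%, and AP-1 matches in 13.2%, against 4.31% and 6.75%. Among the falls, 2 of the 12 windows held a STAT match and 1 each a GATA and an AP-1 match. Some genes have several starts, so windows are not independent, and a match describes the letters of a window, not a bound site.

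Among transcription factors of stem and early progenitor cells, 3 of 26 tested were called, all higher (11.5%, against 0.589% of all genes), and the median was 0.22. Tcf7, the factor TCF-1 of T cell and early progenitors, had 160.0, 153 and 129 against 13.8, 20.6 and 16.8 CPM (3.11, SE 0.28, adjusted p = 0.00848). Zbtb16, the zinc finger repressor PLZF, had 75, 46.4 and 78 against 4.21, 5.08 and 7.19 CPM (3.60, SE 0.46, adjusted p = 0.0229). Mycn, N-myc, had 244, 186 and 500.2 against 12.7, 25.8 and 40.0 CPM (3.57, SE 0.54, adjusted p = 0.0452), and its enhancer-null values spread more than those of the other factors, with library 7 highest. Some members that did not pass had negative log2 fold changes: Mecom had 0.115, 0.0485 and 0.0609 against 2.82, 2.04 and 3.04 CPM (-5.08, SE 1.63, adjusted p = 0.261) and Hoxa7 0.115, 1.16 and 0.0609 against 12.8, 15 and 18.4 CPM (-5.05, SE 1.50, adjusted p = 0.233).

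Id2, an inhibitor of E proteins, had 226, 108 and 81.4 against 19.8, 13.9 and 13.7 CPM (3.13, SE 0.45, adjusted p = 0.0368), with enhancer-null library 1 well above libraries 2 and 7. Sox4, an HMG-box factor of progenitors, had 1244, 905 and 1383 against 348, 472 and 331 CPM (1.62, SE 0.21, adjusted p = 0.0244). Tox, an HMG-box factor of T cells, had 115, 108 and 160.0 against 7.86, 8.44 and 16.2 CPM (3.56, SE 0.40, adjusted p = 0.0142). Aff3, a nuclear protein of the transcription elongation machinery, had 377, 325 and 589 against 95.4, 119 and 123 CPM (1.94, SE 0.26, adjusted p = 0.0272), and Kdm5b, a histone demethylase, 389, 279 and 266 against 73, 74.1 and 101 CPM (1.91, SE 0.24, adjusted p = 0.0219).

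Of 22 tested erythroid, megakaryocyte and mast cell factors, Cbfa2t3 and Nfe2 were called higher (9.09%, against 0.589% of all genes). Of the 22, 16 were positive, and the median was 0.74. Cbfa2t3, the corepressor ETO2 that works with GATA and TAL1 factors, had 621, 417 and 469 against 105, 131 and 169.5 CPM (1.89, SE 0.24, adjusted p = 0.0232). Nfe2, the bZIP factor of platelet formation, had 315, 263 and 333 against 132, 95.5 and 132 CPM (1.34, SE 0.20, adjusted p = 0.0452), and it lost the call in each fit that left out 1 library. Gata2, the GATA factor of stem cells, mast cells and megakaryocytes, had 610.4, 368 and 181 against 50.6, 51.2 and 77.7 CPM (2.69, SE 0.44, adjusted p = 0.0531), without overlap between the groups. Gfi1b, a repressor of the erythroid and megakaryocyte lineages, had 199.6, 227 and 213 against 76.6, 111 and 113 CPM (1.09, SE 0.22, adjusted p = 0.0883).

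Immediate early genes, which cells switch on within minutes of a stimulus, had 5 called among 36 tested, 13.9% against 0.589% of all genes. Like the other lists, this list was chosen with earlier results known. All 5 rose, 27 of the 36 were positive and the median was 0.88. Ier3, a survival gene of this class, had 426, 330.5 and 388 against 48.6, 32.5 and 43.2 CPM (3.20, SE 0.23, adjusted p = 0.00337). Junb, an AP-1 subunit, had 897, 708 and 979 against 361, 236 and 206 CPM (1.69, SE 0.24, adjusted p = 0.0351), and Jund, another, 707, 677 and 807 against 413, 290.2 and 296 CPM (1.13, SE 0.18, adjusted p = 0.0492), which lost the call in each fit that left out 1 library. Ier2 had 881, 615 and 922 against 386, 292 and 293 CPM (1.32, SE 0.20, adjusted p = 0.046). Zfp36l2, an RNA-binding protein that promotes mRNA decay, had 1269.8, 1098 and 1177 against 555, 471 and 604 CPM (1.12, SE 0.14, adjusted p = 0.0187). Btg1 and Btg2, antiproliferative genes of the same list, had log2 fold changes of 1.94, SE 0.32, adjusted p = 0.0523 and 1.77, SE 0.29, adjusted p = 0.0531. Exons of Prdx2 overlap Junb on the other strand, and Prdx2 was level in both groups, at 448, 455 and 409.8 against 486, 469.7 and 532 CPM.

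Platelet and megakaryocyte genes had 2 called of 19 tested, both higher (10.5%, against 0.589% of all genes), with 14 positive and a median of 0.80. Cd63, a tetraspanin of platelet, mast cell and lysosomal granules, had 424, 292 and 280.1 against 49, 22.2 and 26.2 CPM (3.35, SE 0.37, adjusted p = 0.0123). F2r, the thrombin receptor PAR1, had 126, 184 and 247 against 18.6, 25.9 and 24.7 CPM (3.01, SE 0.33, adjusted p = 0.0123). Selp, P-selectin, had 91.5, 35.1 and 48.5 against 5.51, 7.5 and 4.92 CPM (3.29, SE 0.54, adjusted p = 0.0523) and Itga2b, the platelet integrin CD41, 228, 93.8 and 124 against 15.3, 39.5 and 21.8 CPM (2.54, SE 0.49, adjusted p = 0.0809). The summed level of 6 megakaryocyte markers was 257, 141 and 162 against 76, 114 and 116 CPM, with enhancer-null library 1 highest.

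Among the rises of surface proteins and secreted factors, Spns2, the exporter of sphingosine-1-phosphate, had 410.3, 363 and 401 against 60.2, 46.8 and 63.5 CPM (2.78, SE 0.19, adjusted p = 0.00337), and it passed in every fit that was run. Angpt1, the ligand of the Tie2 receptor, had 761, 341 and 529 against 110.0, 72.3 and 60.4 CPM (2.75, SE 0.36, adjusted p = 0.0244), with enhancer-null library 1 more than 2-fold above library 2. Adgrg1, the adhesion receptor GPR56 of stem cells, had 1676, 1299.5 and 1555 against 359, 462 and 506 CPM (1.77, SE 0.17, adjusted p = 0.00954). Tgfbr2, a TGF-beta receptor, had 151, 102 and 87.8 against 21.3, 25.5 and 25.2 CPM (2.24, SE 0.31, adjusted p = 0.0303). It was the 1 called of 37 tested growth factor receptors (2.7%, against 0.589% of all genes). Of the 37, 20 were positive and 17 negative, and the median was 0.30. Ffar2, a receptor for short-chain fatty acids, had 203, 101 and 143 against 11.8, 7.17 and 8.16 CPM (4.03, SE 0.39, adjusted p = 0.00954). Clec4e, the pattern recognition lectin Mincle, had 213, 128 and 233 against 14.2, 7.23 and 8.74 CPM (4.25, SE 0.40, adjusted p = 0.00954). Dpp4, the surface peptidase CD26, had 508, 306 and 286 against 53.2, 81 and 44.5 CPM (2.62, SE 0.33, adjusted p = 0.0227).

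Other cytokine receptors of CMP did not pass. Kit, the stem cell factor receptor, had 472, 547 and 710.4 against 251, 345 and 424 CPM (0.76, SE 0.24, adjusted p = 0.251), and Csf3r, the G-CSF receptor, 53.5, 28.9 and 53 against 81.9, 76.5 and 124 CPM (-1.06, SE 0.36, adjusted p = 0.279). Csf2ra, the specific chain of the GM-CSF receptor, had 6.64, 14.1 and 5.97 against 24.2, 24.1 and 46.5 CPM (-1.83, SE 0.66, adjusted p = 0.307). Flt3, the receptor of lymphoid and dendritic progenitors, had 86.2, 23.9 and 95.2 against 338, 591 and 337 CPM (-2.63, SE 0.52, adjusted p = 0.088). Il2rg, the common gamma chain, had 217, 114 and 222 against 55, 50.1 and 60.1 CPM (1.74, SE 0.30, adjusted p = 0.0574), and Pdgfrb, a PDGF receptor, 98, 162 and 189.6 against 19.4, 40.3 and 33.5 CPM (2.27, SE 0.39, adjusted p = 0.0542). Of the gate genes, Cd34 had 461, 272 and 412 against 879, 763 and 741 CPM (-1.06, SE 0.21, adjusted p = 0.0875), and Fcgr3 had 21.4, 19 and 18.4 against 8.26, 4.69 and 0.259 CPM (2.15, SE 1.19, adjusted p = 0.543), without overlap.

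Of the remaining rises, 4 encode signalling adaptors, grouped here after their values were seen. Lat, the adaptor of T cell, mast cell and platelet receptors, had 76.8, 58.5 and 105 against 11.3, 12.4 and 12.2 CPM (2.74, SE 0.36, adjusted p = 0.0249), and Fyb, an adaptor that links such receptors to integrins, 220.1, 120.1 and 164 against 42, 39.7 and 30.3 CPM (2.17, SE 0.30, adjusted p = 0.0314). Grb2, which joins receptors to the Ras pathway, had 446, 311 and 387 against 151, 162 and 168 CPM (1.25, SE 0.18, adjusted p = 0.0378), and Dapp1, an adaptor that binds phosphoinositides, 514, 348 and 477 against 185, 182 and 189 CPM (1.27, SE 0.18, adjusted p = 0.0368). In the last pair the wild-type libraries were close to each other. Marcks and Marcksl1, actin-binding substrates of protein kinase C, had log2 fold changes of 1.67, SE 0.25, adjusted p = 0.0378 and 1.64, SE 0.22, adjusted p = 0.0286. Zyx, zyxin of focal adhesions, had 549.6, 341 and 486 against 141, 170.1 and 138 CPM (1.62, SE 0.22, adjusted p = 0.0272).

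Lat, Tcf7 and Gzmb were the 3 called of 13 tested genes of a T and NK cell list (23.1%, against 0.589% of all genes). Of the 13, 11 were positive, and the median was 2.13. Gzmb also counts in the mast cell and basophil list. The T cell receptor genes themselves were near 0: Cd3d had 2.86, 0.097 and 0 against 1.45, 0.0552 and 0 CPM, Cd3e 0, 0 and 0 against 1.36, 0 and 0 CPM and Cd3g 0, 0.679 and 0 against 0.0619, 0.0552 and 0 CPM. Lck, a kinase of T cells, had 60.7, 49.5 and 159.9 against 25.2, 27.6 and 8.68 CPM (2.13, SE 0.62, adjusted p = 0.225) and made up nearly all of the summed T and NK cell markers.

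The remaining rises are given by their fold changes. Mdga1, Fam189b, Slc22a3 (an organic cation transporter), Arhgap6 and Lpcat2 (an enzyme of platelet-activating factor synthesis) had log2 fold changes of 3.16, 3.18, 2.87, 2.86 and 2.70. Ctla2a and Serpina3g, inhibitors of cysteine and serine proteases with near-identical relatives that can share reads, had 2.45 and 1.97. Gse1, Osbpl1a, Emid1, Usp18 (the protease that dampens interferon signalling) and Rab38 (a GTPase of lysosome-related organelles) had 2.34, 2.32, 2.17, 2.13 and 2.03. Fut8 (core fucosylation), Emilin2 (extracellular matrix), Muc13 (a membrane mucin), Tsc22d1, Bin2 and Mob3a had 1.94, 1.81, 1.76, 1.61, 1.56 and 1.35. Arhgap6 was the only called gene on the X chromosome, and none was on the Y. Exons of 26 of the 69 genes overlap a gene on the other strand, and the library kit is not stated to mark strand.

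**Figure D3:**
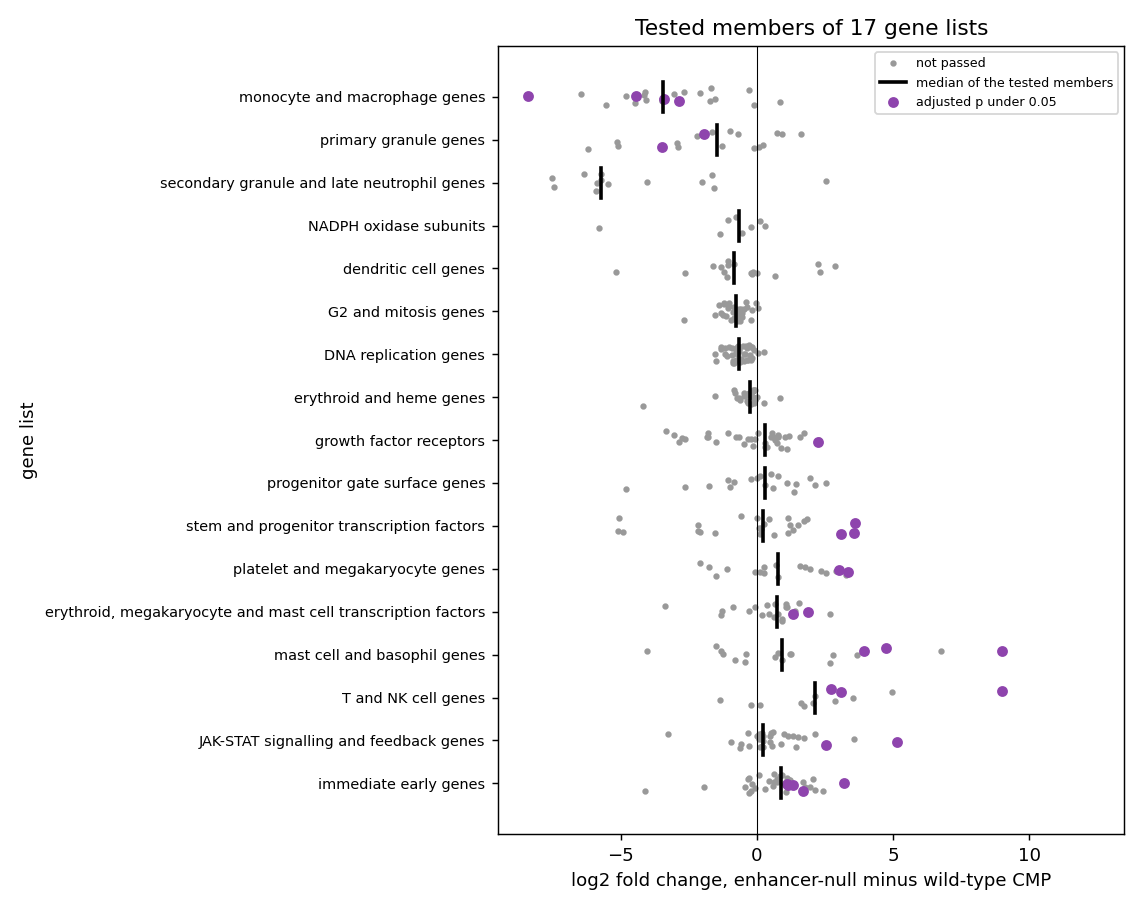
Log2 fold change (x axis, enhancer-null minus wild-type CMP) of every tested member of 17 gene lists, with the median as a bar and genes past the threshold in purple. Monocyte and late neutrophil genes lie mostly left of 0, with medians of -3.43 and -5.72, and immediate early genes mostly right of it, with a median of 0.88.

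Genes of DNA replication and of mitosis were nearly all negative, against 51.2% of all genes. None of them was called, against 0.589% of all genes. Of 35 G2 and mitosis genes, 34 were negative, with a median of -0.75, and of 42 DNA replication genes 40 were negative, with a median of -0.64. Cdk1, the mitotic kinase, had 83.9, 105 and 88.9 against 196, 175 and 194 CPM (-1.02, SE 0.20, adjusted p = 0.0795), and Top2a, a topoisomerase of dividing cells, 306, 423 and 433 against 691, 657 and 761 CPM (-0.86, SE 0.17, adjusted p = 0.0875). Of 31 tested G1 cyclins, kinases and inhibitors 17 were negative (54.8%, against 51.2% of all genes), with a median of -0.22, and 1, Mycn, was higher. Erythroid and heme genes had 27 of 30 negative and a median of -0.26, with no call, and the summed erythroid markers were lowest in enhancer-null library 7, at 572 CPM, and highest in library 2, at 2058 CPM. Dendritic cell genes had 12 of 17 negative, a median of -0.82 and no call. Over the same 11722 genes the median of all log2 fold changes was -0.02 in the reported fit and -0.11 with upper quartile scaling.

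Summed markers of some other cell types differed between the groups. The summed level of 7 mast cell and basophil markers was 1106, 922 and 1347 CPM in the enhancer-null libraries against 232, 42.3 and 45.1 CPM in the wild-type libraries. In the enhancer-null libraries nearly all of it was Cpa3, at 1076, 894 and 1326 CPM, so the sum describes this 1 gene. In wild-type library 1 Cpa3 had 63.3 CPM, so most of the 232 CPM there came from other markers of the set. Of the 7 markers, 4 were tested and only Cpa3 was called. The 6 monocyte markers summed to 186, 82.9 and 40.6 against 907, 979 and 916 CPM, and 2 of them were called. F13a1 alone made up 369, 519 and 520.5 CPM of the wild-type sums. In enhancer-null library 1 nearly all of the sum was Ccr2. The 5 granulocyte precursor markers summed to 2866, 2474 and 3308 against 5795, 5002 and 4635 CPM, and 1 of them was called. Most of this sum was Mpo, which was not called, at 2654, 2338 and 3206 against 4774, 4404 and 4057 CPM. The 6 stem cell markers, of which 4 were tested and 0 called, summed to 9.62, 14.8 and 7.61 against 21.3, 22.1 and 19.3 CPM. In these sets the groups did not overlap. The 5 B cell markers (74.7, 24.8 and 29.4 against 110.2, 40.1 and 21.2 CPM) and 5 dendritic cell markers (56.1, 39.9 and 78.2 against 160.4, 40.7 and 32.4 CPM) did overlap, and the 4 stromal markers reached at most 13 CPM. The part of other cells in the results above was not tested.

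**Figure D4:**
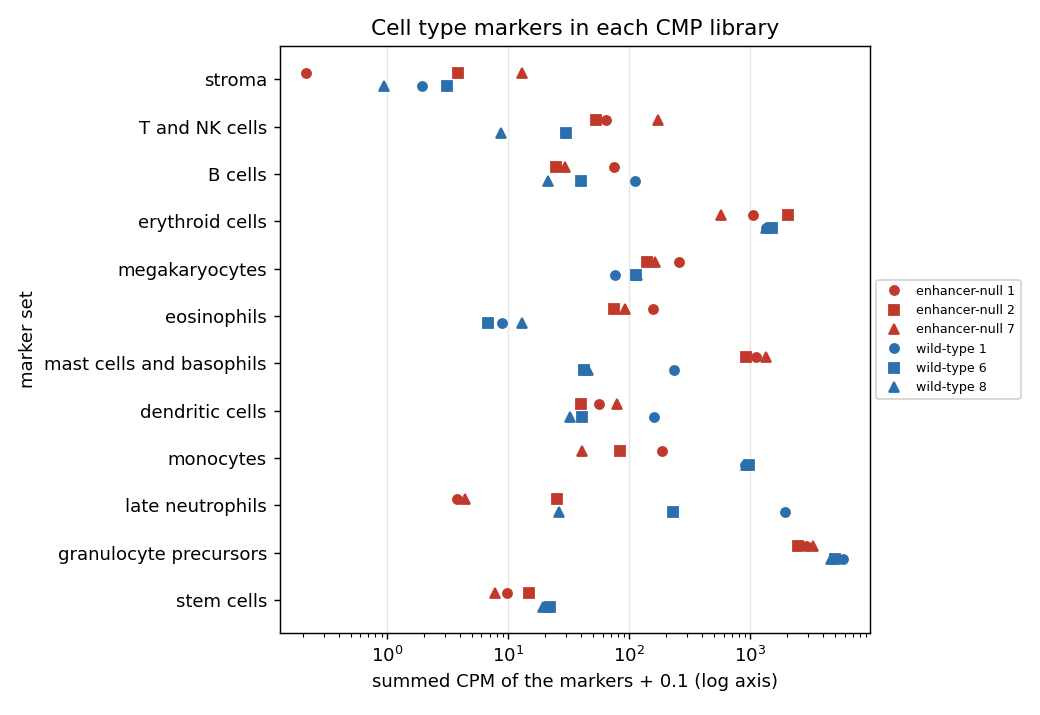
Summed CPM of the markers of each cell type in each of the 6 CMP libraries, plus 0.1, on a log axis. Monocyte, granulocyte precursor and stem cell sums are lower in all 3 enhancer-null libraries, and most of the granulocyte precursor sum is Mpo. The mast cell and basophil sum is higher there, where nearly all of it is Cpa3. Late neutrophil markers range from 25.9 to 1936 CPM among the wild-type libraries.

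Across the 6 fits that each left out 1 library, 10 other alternatives and the fit without enhancer-null libraries 1 and 7, no called gene changed sign. The last of these keeps only library 2 in the enhancer-null group and is left out of what follows. Irf8, Spns2, Ier3, Ifitm1, Socs3 and Scin passed in all 6 fits without a library and all 10 other alternatives. Their highest adjusted p values were 0.0246, 0.0331, 0.05, 0.0237, 0.0321 and 0.018, that of Ier3 lying just under the threshold before rounding. The other 63 lost the call in at least 1 of the 6 fits without a library, and 6, Ctsz, Jund, Nfe2, Mob3a, Bin2 and Marcks, passed in none of those fits. Of the 69 called genes, 26 passed in all 10 other alternatives. Enhancer-null library 2, the library closest to the wild type, was the lowest of its group in 39 of the 56 rises (69.6%), which was also so in 62.4% of all genes that were higher without overlap. Enhancer-null library 1 was the highest in 32 (57.1%, against 57.2%).

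**Figure D5:**
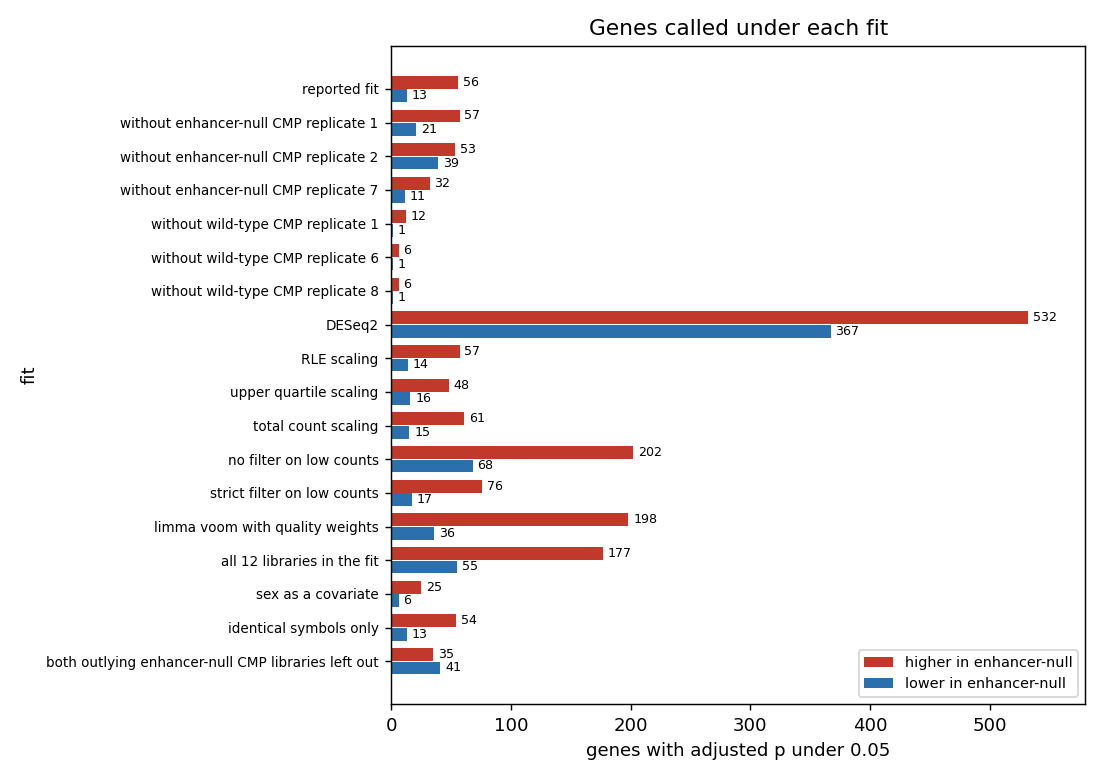
Number of genes called higher and lower in enhancer-null CMP (x axis, adjusted p under 0.05) under the reported fit and each alternative. Leaving out a wild-type library gives 7 to 13 calls in all, and DESeq2 gives 532 rises and 367 falls. The fit with both enhancer-null libraries 1 and 7 left out keeps only library 2 in that group, so its bars are not read.

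Just outside the threshold, 123 genes (1.05% of those tested) had an adjusted p between 0.05 and 0.1, 89 with a positive and 34 with a negative log2 fold change. A few genes were present in every library of one group and close to 0 in every library of the other. Of 23383 joined genes, 8 (0.0342%) had at least 10 CPM in every wild-type library and at most 1 CPM in every enhancer-null library. Among them were Cebpa, Tmem243, Abcd2, Ms4a4c, Rab7b, Sdc1 and Syne2. Of the 8 only Tmem243 was called, and Abcd2, Ms4a4c, Rab7b, Sdc1 and Syne2 are named after their values were seen. Ms4a4c, a relative of Ms4a6c, had no count in the enhancer-null libraries and 13.8, 11.3 and 12.2 CPM in the wild-type libraries, at least 194-fold higher against a floor of 3 counts over the group. Sdc1, syndecan 1, had 0, 0.679 and 0 against 12.3, 23.9 and 25.3 CPM, with all of its counts in the enhancer-null group from library 2. The same limits in the other direction were met by 3 genes (0.0128%), Cyp11a1, Qrfp and Trpv4, none of them called. Cyp11a1, the first enzyme of steroid hormone synthesis, had 42.6, 20.4 and 37.2 against 0.835, 0.717 and 0 CPM, a ratio of summed counts of 50.5 with a counting interval of 36.9 to 71. Qrfp, a neuropeptide precursor, had 45.9, 20.9 and 29.7 against 0.433, 0.166 and 0 CPM, and Trpv4, a calcium channel, 43.9, 17.4 and 18.4 against 0.0928, 0.828 and 0.13 CPM.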

How the data were processed

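RNA-seq was measured in 6 CMP libraries, 3 enhancer-null and 3 wild-type, and in 6 LSK libraries that entered only 1 alternative. The deposited values are raw counts per gene symbol. The submitters' processing notes name HTSeq, Bowtie, TopHat and TopHat2 2.0.4 with the build mm10. No source used here gives the annotation, the counting mode or whether strand was used. Rows that name no gene, 37.4% to 46.9% of the counts of the CMP libraries, were left out. Wild-type library 6 lists 23456 symbols and the others 24420. The 22779 identical symbols and 604 linked one to one by older names were joined (23383), which left out 0.075% to 0.199% of gene counts.

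Genes were filtered with filterByExpr (minimum count 10), scaled by TMM and tested with edgeR 4.0.16 (robust quasi-likelihood, R 4.3.3) over 11722 genes, with no covariate and Benjamini-Hochberg adjustment at 0.05. Alternatives used DESeq2 1.42.0, limma 3.58.1 (voom), other scalings and filters, all 12 libraries, sex as a covariate, identical symbols, and each library left out in turn. No 2 libraries were identical. The procedure was tested on data simulated with the fitted spread of each gene. Genes were drawn independently with the same spread in both groups, whereas the measured enhancer-null libraries spread more than the wild-type libraries. The number of false calls does not cover this difference. In these simulated data the procedure recovered 4%, 34%, 34% and 52% of changes of 1, 2, 3 and 4 log2 units, and 2 of 64 calls were false. A gene that was not called may therefore still differ. Gene positions are from GENCODE M21. Described with values are Cebpa, genes past the threshold (with the 12 largest rises and 10 largest falls whose higher group averages 5 CPM or more), up to 3 further members of each list by smallest p, all CEBP, receptor, gate and NADPH oxidase members, and the cell type markers. Members and lists were chosen with earlier results of these data known. 1 gene of a group counted at the end of the results is not reported here.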

Additional observations from a re-analysis of the deposited data

How the results depend on the processing

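The number of genes called depended on the fit, and no called gene changed sign in any fit. Rises numbered 532 and falls 367 with DESeq2, 202 and 68 without a filter on low counts, 198 and 36 with limma voom, 177 and 55 with all 12 libraries, and 25 and 6 with sex as a covariate. The share of rises among the calls was 81.2% in the reported fit, 59.2% with DESeq2 and 46.1% with enhancer-null libraries 1 and 7 both left out, an alternative chosen after seeing the data that gave 35 rises and 41 falls. Leaving out 1 library gave 6 to 57 rises and 1 to 39 falls, with the fewest when a wild-type library was left out. Cebpa had a log2 fold change of -8.38 with DESeq2, -8.35 without a filter and -8.38 with all 12 libraries, and passed in these 3. Without enhancer-null libraries 1 and 7 its log2 fold change was -7.10. With 1 library left out it ranged from -11.55 to -7.77 and did not pass. The cause of these differences was not tested. The counts were within 1.5 times the reported ones with RLE, upper quartile and total count scaling, the strict filter and identical symbols. Of 1171 values of called genes under the alternatives, including the fit without enhancer-null libraries 1 and 7, 837 kept the call and 334 lost it. Of 297 list medians, 23 moved by more than the pooled SD of the list's median level between libraries of a group. No paired analysis was possible because the enhancer-null and wild-type CMP groups share only replicate number 1. The fit of all 12 libraries used no block, although CMP and LSK libraries of a genotype share replicate numbers. With 3 libraries a group and a count of 3 worth up to 0.334 CPM, changes of genes near the floor were not detectable. Large changes could be missed too: in the simulated data, 52% of those of 4 log2 units were recovered.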
